A study of Homo sapiens with 6 samples.

Results

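The classical protein tyrosine phosphatases other than PTPN11 were described across 6 arrays of MCF10A-HER2/3 cells that carried an SHP2 miR, to knock down SHP2, or a control miR. They are the nontransmembrane PTPN genes and the receptor-type PTPR genes. The members were taken from the gene family by name, and a gene was measured where a probe set carried its symbol and no other. Of 36 listed members, 32 had such a probe set, among 18377 genes measured in all. These were all 16 listed nontransmembrane genes and 16 of the 20 listed receptor-type genes. Expression of PTPRJ, PTPRQ and PTPRT was not analysed here, and the probe set that includes PTPRA carries a second symbol, so its value is not reported. PTPN20 had 4 probe sets, of which the one with the highest mean was kept.

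Classical phosphatases remove phosphate from tyrosines with a catalytic cysteine that attacks the phosphate, and they oppose tyrosine kinases such as the ERBB receptors. The nontransmembrane enzymes are steered by their flanking domains (SH2, FERM, PDZ or proline-rich stretches), while the receptor types carry extracellular domains that bind ligands or neighbouring cells. In mammary epithelium members of the family act on ERBB receptors, on SRC, on the adhesion adaptors of focal contacts and on cadherin junctions. PTPN11 encodes SHP2, which unlike most of the family promotes RAS-ERK signalling downstream of receptors. The family therefore bears on whether the SHP2 miRs lowered related transcripts and whether any relative was raised beside them.

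MCF10A is an established line of immortalised human mammary epithelial cells, and the labels name the derivative used here MCF10A-HER2/3. Cells carried a lentiviral construct, inducible by doxycycline, with SHP2 miR1, SHP2 miR2 or a control miR (CTRL miR), and each group had 2 arrays. All 3 groups received doxycycline from the day after seeding, renewed every 2 days, and all were harvested after 15 days in three-dimensional culture with EGF, insulin, cholera toxin, hydrocortisone and horse serum. Whether each line was a clone or a pool is not given in the sources used here, nor is it stated that the replicates of a group were grown as separate cultures. A p-value here reflects the spread among the 6 arrays alone, and that spread may be technical.

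Values are log2 probe set values, and differences are log2 differences, with 1 unit equal to a doubling. A difference was called where limma's adjusted p over all 18377 genes was under 0.05. Array medians lay between 5.23 and 5.35, and replicates correlated at r = 0.985 to 0.986 across genes. The SHP2 miR1 arrays had the highest medians and the smallest standard deviations over probe sets. These deviations were 1.92 and 1.92 with SHP2 miR1, 1.95 and 1.97 with SHP2 miR2, and 1.99 and 2.02 in CTRL miR. Control replicate 2 correlated less with the SHP2 miR1 arrays (0.958 and 0.960) than control replicate 1 did (0.971 and 0.972). Of the 9 measured basal mammary markers, 0 were dim, that is, with a mean no higher than 4.76 (the 40th percentile over probe sets). Dim markers numbered 6 of 13 for leukocytes, 6 of 10 for endothelium, 6 of 12 for neural cells and 2 of 9 for fibroblasts. Averaged over both SHP2 miRs, 3 of the 9 basal markers were called (33.3%, beside 4.20% of all genes): KRT14 rose by 1.10, DSG3 rose by 0.70 and LAMB3 fell by 1.07 (adjusted p = 0.00440, 0.0418 and 0.00314). So were 2 of the 10 endothelial markers, with PECAM1 higher by 0.60 and TEK lower at -1.38 (adjusted p = 0.0422 and 0.000867). DSG3 and PECAM1 were lost with any array left out and KRT14 without CTRL miR replicate 2 (adjusted p = 0.0855), while LAMB3 and TEK passed with any array left out. Their part in the members' values was not tested. Apart from the dim label, levels of different genes were not compared, since each probe set has its own brightness. The dim label applies the same cutoff to all probe sets and shares this limit. Fewer cells of a type and less RNA per cell cannot be told apart in these samples.

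PTPN11 itself had values of 6.04 and 5.71 with SHP2 miR1, 6.90 and 7.28 with SHP2 miR2, and 7.96 and 8.44 in CTRL miR. All 4 SHP2 miR arrays lay below both CTRL miR arrays, and the SHP2 miR1 arrays were the lowest. PTPN11 fell by 1.72 on average over both SHP2 miRs (SE 0.19, 3.28-fold, adjusted p = 0.00184). It fell by 2.32 with SHP2 miR1 (adjusted p = 0.000548), and the difference was -1.11 with SHP2 miR2 (adjusted p = 0.0813). The libraries labelled SHP2 miR therefore carried less PTPN11 RNA than those labelled CTRL miR, though for SHP2 miR2 alone the difference missed the threshold.

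Averaged over both SHP2 miRs, 2 of the 32 members passed the threshold, against 4.20% of all genes, and both were lower than in CTRL miR (2.67% of all genes were called lower). They were PTPN12 and PTPN21, both nontransmembrane, and their share of the members (6.25%) was near that of all genes. None of the 32 was called higher, against 1.53% of all genes; at an unadjusted p under 0.05 there were 12 members in either direction, against 20.9% of all genes. The median over the 32 members was -0.10, beside 0.02 over all genes, with 19 members below 0 and 13 above. The median was -0.22 over the nontransmembrane genes and -0.04 over the receptor types. With a mean-variance trend in the fit, 8 members passed, adding PTPN1, PTPN9, PTPN22, PTPRE and PTPRM (lower) and PTPN14 (higher), against 9.76% of all genes in that fit.

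**Figure D1:**
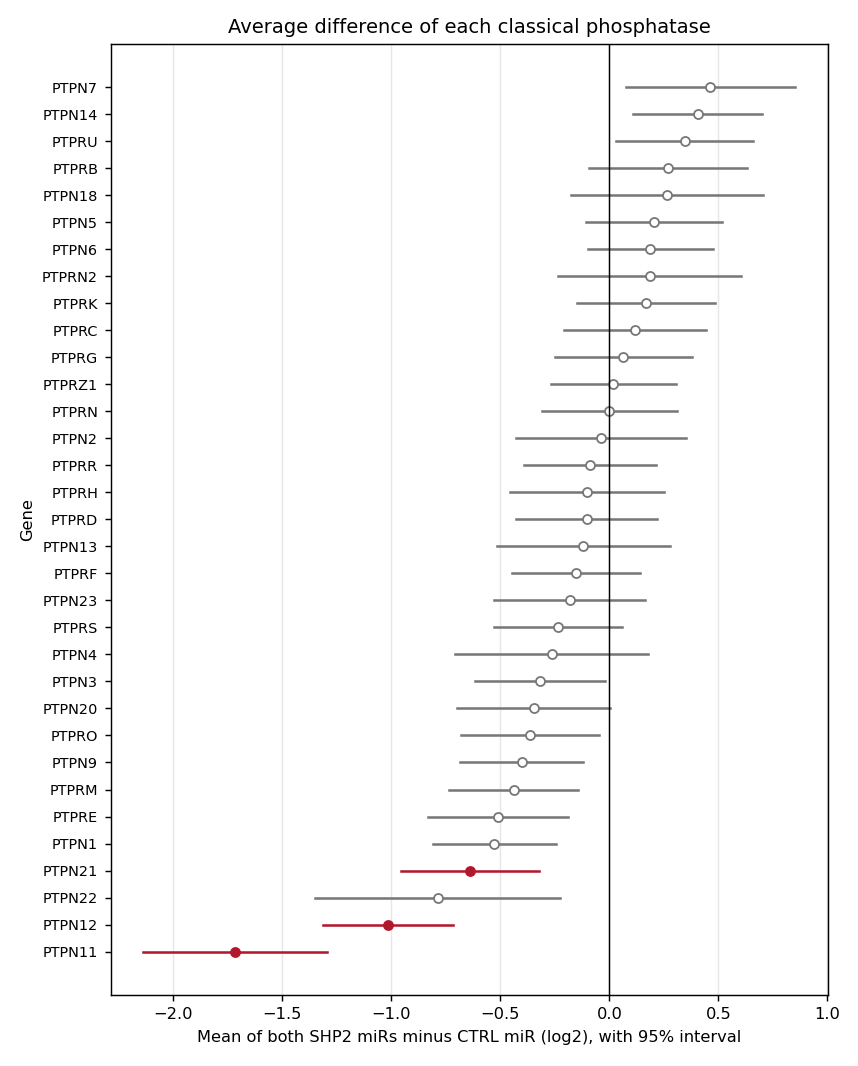
Average difference of PTPN11 and the 32 measured members, as the mean of both SHP2 miRs minus CTRL miR on the log2 scale. Points are fitted differences, lines are 95% intervals, and filled red points passed the adjusted threshold: PTPN11 at -1.72, PTPN12 at -1.02 and PTPN21 at -0.64.

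PTPN12 encodes PTP-PEST, which dephosphorylates the focal adhesion adaptors p130Cas and paxillin and acts on ERBB receptors. Its values were 6.67 and 6.83 with SHP2 miR1, 7.21 and 7.38 with SHP2 miR2, and 8.01 and 8.06 in CTRL miR. The groups did not overlap, and the order of the 3 groups was that of PTPN11. PTPN12 fell by 1.02 on average (SE 0.13, 2.02-fold, adjusted p = 0.00419), the largest difference among the measured members. Against CTRL miR it fell by 1.29 with SHP2 miR1 (SE 0.15, 2.44-fold, adjusted p = 0.00185), and with SHP2 miR2 the difference was -0.74 (interval -1.09 to -0.40, adjusted p = 0.0928). Without CTRL miR replicate 2 the average difference was -0.99 and missed the threshold (adjusted p = 0.0733), while the SHP2 miR1 difference passed with any array left out.

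PTPN21, a FERM-domain phosphatase that binds SRC-family and TEC-family kinases, read 5.03 and 5.20 with SHP2 miR1, 5.31 and 5.38 with SHP2 miR2, and 5.73 and 6.01 in CTRL miR. Every SHP2 miR array was below both controls, and the SHP2 miR1 arrays were lowest. On average it fell by 0.64 (SE 0.14, 1.56-fold, adjusted p = 0.0392). The call did not survive leaving out any of the 6 arrays, with values between -0.78 and -0.50 and adjusted p-values of up to 0.335. With SHP2 miR1 it fell by 0.75 (adjusted p = 0.0260), a call lost without either SHP2 miR1 array or without CTRL miR replicate 2 (adjusted p-values of up to 0.183). With SHP2 miR2 the difference was -0.52 (interval -0.89 to -0.16, adjusted p = 0.264).

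With SHP2 miR1 alone 6 of the 32 members passed, against 8.60% of all genes, namely 5 lower (5.94% of all genes) and 1 higher (2.66% of all genes), and these 6 make up 18.8% of the members. At an unadjusted p under 0.05 there were 12, against 28.1% of all genes. Besides PTPN12 and PTPN21 the lower members were PTPN1, PTPRE and PTPRM, and the higher one was PTPN14. PTPN1 encodes PTP1B, an enzyme of the endoplasmic reticulum that acts on the insulin receptor, EGFR and JAK2. Its values were 8.51 and 8.43 with SHP2 miR1, 8.93 and 8.85 with SHP2 miR2, and 9.19 and 9.23 in CTRL miR. The 3 groups were fully separated. PTPN1 fell by 0.74 with SHP2 miR1 (SE 0.14, 1.67-fold, adjusted p = 0.0179), beside -0.32 with SHP2 miR2 (adjusted p = 0.463) and -0.53 on average (adjusted p = 0.0507). Without either SHP2 miR1 array or either control the SHP2 miR1 call was lost, at adjusted p-values of up to 0.126.

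PTPN14 is a FERM-domain phosphatase related to PTPN21 that binds the growth co-activator YAP and holds it outside the nucleus. It read 8.10 and 7.92 with SHP2 miR1, 7.61 and 7.62 with SHP2 miR2, and 7.33 and 7.49 in CTRL miR. All SHP2 miR arrays lay above both controls, so these related genes differed in opposite directions. PTPN14 rose by 0.60 with SHP2 miR1 (SE 0.15, 1.52-fold, adjusted p = 0.0438), with 0.21 for SHP2 miR2 (adjusted p = 0.654) and 0.40 on average (adjusted p = 0.130). The call was lost with any array left out (adjusted p-values of up to 0.215) and with arrays centred on their medians, where the difference was 0.52 (adjusted p = 0.0706). A fit on the compared groups alone also lost the PTPN14 call. With centring the members split into 7 lower and 0 higher. All genes then split into 378 higher and 1536 lower, against 489 higher and 1092 lower without centring.

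The receptor types PTPRE and PTPRM were lower with SHP2 miR1. PTPRE, which dephosphorylates and activates SRC in mammary tumour cells of mice, read 6.24 and 5.89 with SHP2 miR1, 6.35 and 6.35 with SHP2 miR2, and 6.74 and 6.69 in CTRL miR. Both groups of SHP2 miR arrays were below the controls, while 1 SHP2 miR1 array lay close to the SHP2 miR2 arrays. It fell by 0.65 with SHP2 miR1 (SE 0.16, 1.57-fold, adjusted p = 0.0421), beside -0.37 with SHP2 miR2 (adjusted p = 0.459). PTPRM binds its own kind on neighbouring cells and associates with cadherins. Its values were 7.51 and 7.32 with SHP2 miR1, 7.83 and 7.93 with SHP2 miR2, and 8.04 and 8.13 in CTRL miR. The SHP2 miR1 arrays were below the other 4. PTPRM fell by 0.67 with SHP2 miR1 (SE 0.15, 1.59-fold, adjusted p = 0.0303), beside -0.21 with SHP2 miR2 (adjusted p = 0.654). No call remained for PTPRE when any of the 6 arrays was omitted (adjusted p-values of up to 0.212), nor for PTPRM without either SHP2 miR1 array or either control (up to 0.178). Under quantile normalization both missed the threshold, at adjusted p-values of 0.0613 and 0.0564. PTPRE also missed it in a fit on the compared groups alone.

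**Figure D2:**
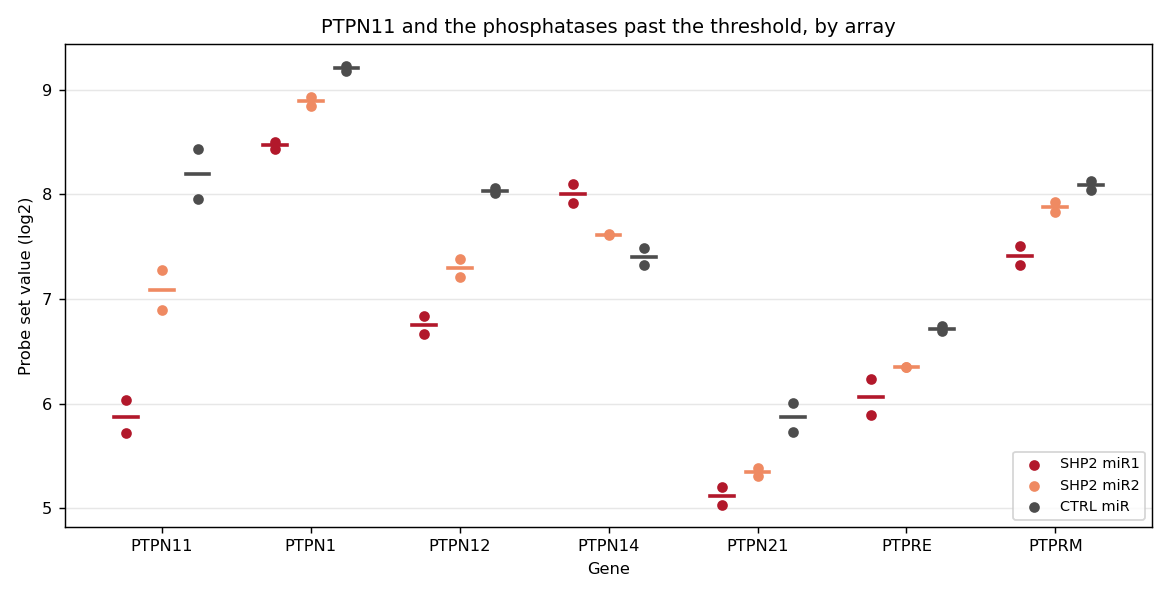
Log2 probe set value of PTPN11 and the 6 members past the threshold with SHP2 miR1, with a dot per array and a bar at the mean of each group of 2 arrays. In each gene the SHP2 miR2 mean lies between the SHP2 miR1 mean and the CTRL miR mean; heights are not comparable between genes.

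With SHP2 miR2 alone 0 of the 32 members passed in limma, against 0.370% of all genes (0.190% higher and 0.180% lower), and 3 had an unadjusted p under 0.05, against 11.0% of all genes. These 3 were PTPN12, PTPN21 and PTPRU. The largest difference among members was the -0.74 of PTPN12, and for 30 of the 32 the 95% interval lay between -1 and 1 (95.3% of all genes). PTPN12 passed with SHP2 miR2 where the fit used a mean-variance trend (2.00% of all genes did). In the direct comparison of SHP2 miR2 with SHP2 miR1, 0 members passed in limma (0.190% of all genes did, 0.152% higher and 0.0381% lower) and 6 had an unadjusted p under 0.05, against 17.7% of all genes. The interval lay between -1 and 1 for 31 of the 32 members, against 92.7% of all genes. PTPN12 was 0.54 higher with SHP2 miR2 than with SHP2 miR1 (interval 0.20 to 0.89, adjusted p = 0.147), and PTPN1 was 0.42 higher (interval 0.10 to 0.75, adjusted p = 0.200). PTPRM was 0.46 higher (adjusted p = 0.185). PTPN7, PTPN14 and PTPRN went the other way, at -0.53, -0.39 and -0.40 (adjusted p = 0.225, 0.236 and 0.239). A difference in these members between the SHP2 miRs was therefore not called with 2 arrays a group. Both SHP2 miRs were set against the same controls, so their differences from CTRL miR are not independent.

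**Figure D3:**
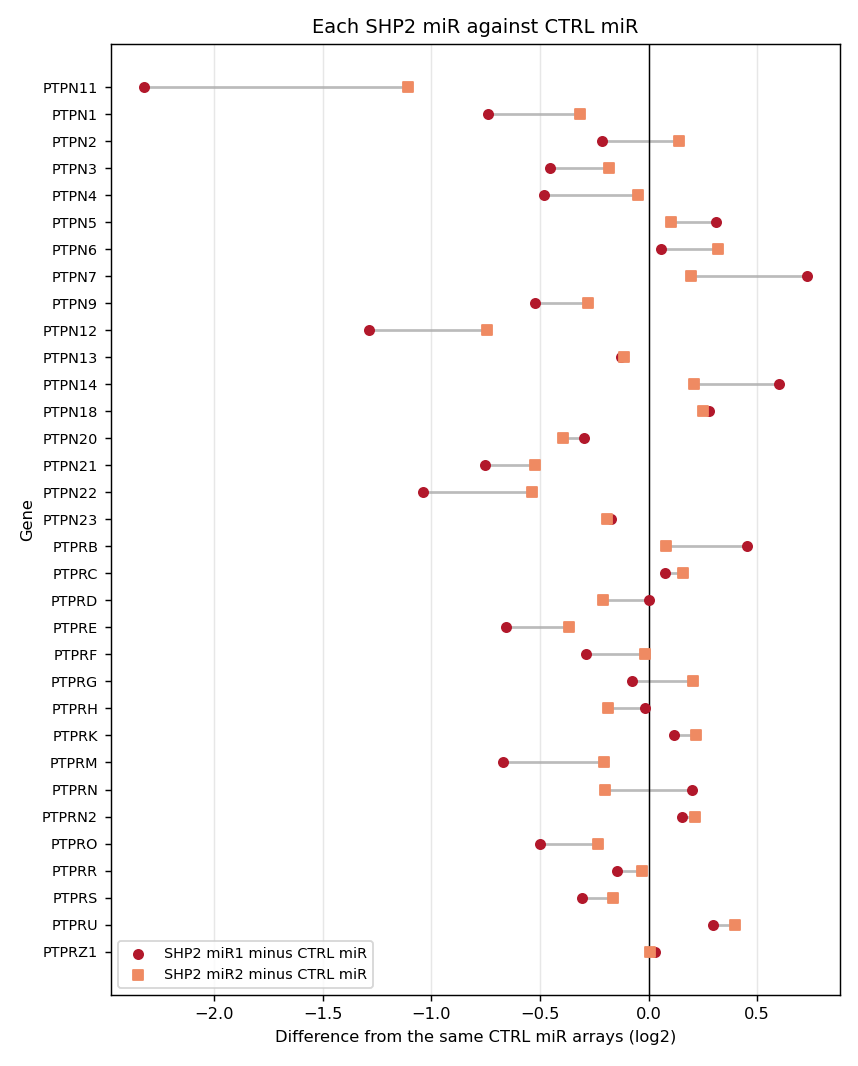
Difference from CTRL miR with SHP2 miR1 (circles) and SHP2 miR2 (squares) for PTPN11 and the 32 measured members, on the log2 scale. PTPN12 stands at -1.29 and -0.74; both values of a gene rest on the same 2 CTRL miR arrays.

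The promoters of PTPN12, PTPN21, PTPN1 and PTPN14 are shown because these nontransmembrane members passed the threshold, PTPN1 and PTPN14 with SHP2 miR1 only. PTPN14 differed in the opposite direction to the others. Each line gives the 250 bases before the RefSeq start site (GRCh38.p14), 5′ to 3′ on the gene's strand, with matches to the searched motifs in capitals.
PTPN12 promoter (chr7:77537793-77538042, plus strand): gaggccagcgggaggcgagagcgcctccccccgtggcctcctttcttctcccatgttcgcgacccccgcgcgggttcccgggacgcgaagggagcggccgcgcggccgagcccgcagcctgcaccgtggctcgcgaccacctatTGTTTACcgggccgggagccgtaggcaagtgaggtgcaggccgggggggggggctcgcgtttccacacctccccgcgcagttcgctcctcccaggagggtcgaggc
PTPN21 promoter (chr14:88555008-88555257, minus strand): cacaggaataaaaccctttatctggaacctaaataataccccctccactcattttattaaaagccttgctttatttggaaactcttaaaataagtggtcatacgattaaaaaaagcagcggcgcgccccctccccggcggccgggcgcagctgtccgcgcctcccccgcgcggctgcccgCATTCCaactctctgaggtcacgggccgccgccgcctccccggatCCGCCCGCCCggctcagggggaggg
PTPN1 promoter (chr20:50510133-50510382, plus strand): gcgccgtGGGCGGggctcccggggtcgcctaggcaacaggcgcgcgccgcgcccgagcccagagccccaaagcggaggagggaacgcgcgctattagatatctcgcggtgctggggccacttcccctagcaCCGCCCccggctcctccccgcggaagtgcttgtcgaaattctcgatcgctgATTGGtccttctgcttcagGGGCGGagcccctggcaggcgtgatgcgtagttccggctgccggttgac
PTPN14 promoter (chr1:214551603-214551852, minus strand): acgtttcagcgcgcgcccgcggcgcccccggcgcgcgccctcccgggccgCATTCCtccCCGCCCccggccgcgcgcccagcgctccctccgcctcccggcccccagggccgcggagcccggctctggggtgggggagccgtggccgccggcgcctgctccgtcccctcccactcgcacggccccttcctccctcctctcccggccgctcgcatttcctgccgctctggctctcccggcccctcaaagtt
The motifs, searched on both strands, were the ETS motif CCGGAAGT, the AP-1 motif TGANTCA, the CRE motif TGACGTCA, the GC box GGGCGG, the CCAAT box CCAAT, the E-box CACGTG, the TEAD motif CATTCC and the FOXO motif GTAAACA.

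In the PTPN12 window the capitals mark a FOXO motif, found in 2.98% of 35116 promoters of the same length and in 1 of the 32 listed members with a promoter in the table. That set includes PTPRA and PTPRT, which have no expression value here, and lacks PTPRB, PTPRJ, PTPRN2 and PTPRQ. PTPN21 and PTPN14 each held a TEAD motif, found in 11.9% of all promoters and 7 of these 32 promoters. PTPN21 held 2 GC boxes that overlap each other, PTPN14 held 1 and PTPN1 held 3; 42.6% of all promoters and 19 of these 32 held at least 1. PTPN1 also had a CCAAT box (32.0% of all promoters and 11 of these 32). The ETS and AP-1 motifs were found in 1 member promoter each, in PTPN23 and PTPN9, and in 3.42% and 6.57% of all promoters. The windows of PTPN12, PTPN21, PTPN1 and PTPN14 had 73.6%, 59.2%, 69.2% and 80.0% G and C. A match is a description of the letters in these windows only.

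Of the SH2-domain phosphatases, PTPN6 (SHP1) is the closest relative of SHP2 and restrains signalling in blood cells. It read 7.04 and 7.19 with SHP2 miR1, 7.40 and 7.35 with SHP2 miR2, and 7.09 and 7.03 in CTRL miR. Both SHP2 miR2 arrays and 1 SHP2 miR1 array lay above both controls. The average difference was 0.19 (interval -0.10 to 0.48, adjusted p = 0.436), beside 0.06 with SHP2 miR1 and 0.32 with SHP2 miR2, and none of them passed.

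Among the other nontransmembrane members, PTPN9, a phosphatase of secretory vesicles with a SEC14 lipid-binding domain, read 7.41 and 7.32 with SHP2 miR1, 7.64 and 7.58 with SHP2 miR2, and 7.87 and 7.90 in CTRL miR. All SHP2 miR arrays lay below both controls, with an average of -0.40 (interval -0.68 to -0.12) that did not pass (adjusted p = 0.114; 0.0558 with SHP2 miR1). PTPN3, a FERM and PDZ domain phosphatase, showed the same order at -0.32 on average (adjusted p = 0.215). Its relative PTPN4 had -0.26 (adjusted p = 0.478), but the controls themselves read 5.05 and 5.78, and without CTRL miR replicate 2 the sign turned (0.10). PTPN2, the nearest relative of PTPN1 and a phosphatase of JAK1 and STAT proteins, had -0.04 (interval -0.43 to 0.35, adjusted p = 0.929). PTPN13, a large PDZ-domain enzyme, had -0.12, and PTPN23, which sorts receptors at endosomes, had -0.18 (adjusted p = 0.738 and 0.534). PTPN18, which together with PTPN12 and PTPN22 forms the proline-rich group and acts on ERBB2, had 0.26 (adjusted p = 0.478), with SHP2 miR1 arrays at 5.49 and 6.22. PTPN20, a little-studied member whose locus is duplicated, was dim and had -0.35 for the kept probe set (adjusted p = 0.242). Its other 3 probe sets had average differences of 0.02, -0.05 and 0.22, so the 4 probe sets disagreed in sign.

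Members best known from lymphocytes and neurons were measured in the same cells. PTPN22, a lymphocyte phosphatase of SRC-family kinases, was dim. Its values were 3.53 and 3.27 with SHP2 miR1, 3.47 and 4.33 with SHP2 miR2, and 4.15 and 4.72 in CTRL miR. SHP2 miR2 replicate 2 lay between the controls, and the average of -0.79 (interval -1.35 to -0.22) did not pass (adjusted p = 0.120); without that array it passed (adjusted p = 0.0465). With SHP2 miR1 alone PTPN22 had -1.04 (interval -1.69 to -0.39, adjusted p = 0.0572), and this passed under 6 of 17 alternatives. PTPN7, which dephosphorylates ERK and p38 in lymphocytes, read 5.47 and 4.92 with SHP2 miR1, 4.66 and 4.66 with SHP2 miR2, and 4.57 and 4.35 in CTRL miR. All SHP2 miR arrays lay above both controls, and SHP2 miR1 replicate 1 stood apart from the rest. The average was 0.46 (interval 0.08 to 0.85, adjusted p = 0.173), the highest among the members. Its mean over all arrays, 4.77, was only just above the dim cutoff of 4.76. With SHP2 miR1 alone PTPN7 had 0.73 (interval 0.28 to 1.18, adjusted p = 0.0539), and this passed under 4 of 17 alternatives. PTPN5 and PTPRR, which dephosphorylate ERK in neurons through the same kind of docking motif, had 0.21 and -0.09 (adjusted p = 0.432 and 0.748), and PTPRR was dim. PTPRC, the leukocyte antigen CD45, was dim and had 0.12 (adjusted p = 0.690). The 13 leukocyte markers summed to 71.2 and 71.0 with SHP2 miR1, 70.6 and 68.7 with SHP2 miR2, and 69.2 and 68.4 in CTRL miR (log2 values added up). Single markers went opposite ways with SHP2 miR1: CD14 rose by 1.08 (adjusted p = 0.0366) and CD68 fell by 0.71 (adjusted p = 0.0272). Both calls were lost without either SHP2 miR1 array or either control. Their part in the PTPN7 and PTPN22 values was not tested.

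None of the 16 receptor-type members passed on average in limma (4.20% of all genes did), and 4 had an unadjusted p under 0.05, or 25.0% beside 20.9% of all genes. PTPRE and PTPRM passed with the mean-variance trend. The LAR group, which binds heparan sulphate proteoglycans and synaptic or junctional partners, had -0.15 for PTPRF, -0.24 for PTPRS and -0.10 for the dim PTPRD (adjusted p = 0.535, 0.336 and 0.717). PTPRS read 6.70 and 6.57 with SHP2 miR1, 6.83 and 6.72 with SHP2 miR2, and 7.00 and 6.88 in CTRL miR. Its SHP2 miR arrays lay below both controls, while those of PTPRF and PTPRD overlapped them. In the adhesive group with MAM domains, PTPRU had 0.35 (interval 0.03 to 0.66, adjusted p = 0.204) and PTPRK 0.17 (adjusted p = 0.534), beside the -0.44 of PTPRM (adjusted p = 0.104). PTPRU read 6.49 and 6.29 with SHP2 miR1, 6.62 and 6.37 with SHP2 miR2, and 6.08 and 6.11 in CTRL miR. Its SHP2 miR arrays were all above both controls, those of PTPRM all below, and PTPRK overlapped.

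Of the receptor types with fibronectin repeats only, PTPRO, a phosphatase of podocytes, had -0.36 (interval -0.68 to -0.05, adjusted p = 0.187), PTPRB, known from endothelium and dim here, 0.27, and PTPRH, known from gut and tumour epithelium, -0.10 (adjusted p = 0.378 and 0.751). PTPRO read 3.82 and 3.63 with SHP2 miR1, 4.13 and 3.85 with SHP2 miR2, and 4.24 and 4.20 in CTRL miR, and was dim. PTPRG and PTPRZ1, which carry a carbonic anhydrase-like domain and bind contactins, had 0.06 and 0.02 (adjusted p = 0.836 and 0.958), and PTPRZ1 was dim. The vesicle proteins PTPRN and PTPRN2, inactive as tyrosine phosphatases, had 0.00 and 0.18 (adjusted p = 0.999 and 0.611). PTPRN read 5.16 and 5.13 with SHP2 miR1, 4.64 and 4.85 with SHP2 miR2, and 4.84 and 5.05 in CTRL miR. Its SHP2 miRs stood on opposite sides of the control mean. The difference of SHP2 miR2 from SHP2 miR1 was -0.40 in PTPRN (interval -0.76 to -0.05, adjusted p = 0.239) and did not pass.

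Counted by position alone, 10 of the 32 members had all 4 SHP2 miR arrays below both controls, against 13.6% of all genes, and 3 had them above, against 12.6%. The 10 were PTPN1, PTPN3, PTPN9, PTPN12, PTPN20, PTPN21, PTPRE, PTPRM, PTPRO and PTPRS, and the 3 were PTPN7, PTPN14 and PTPRU; PTPN20 and PTPRO among them were dim, as were 8 of the 32 members. For SHP2 miR1 alone 14 members lay below both controls (29.0% of all genes) and 6 above (30.5%), and for SHP2 miR2 alone 12 lay below (20.8%) and 8 above (19.8%). The share below was larger in the members than in all genes. The share above was near or below that of all genes except for SHP2 miR2. All 4 arrays lay below both controls for 31.2% of the members. For other lists, described further on, this share was 28.6% (superfamily enzymes), 33.3% (substrates), 25% (ligands and partners), 3.85% (peroxide and thioredoxin genes) and 17.2% (cytosolic kinases). With SHP2 miR1 alone it was 43.8% in the members, and 51.4%, 48.7%, 28.1%, 19.2% and 31% in those lists. A larger share below was thus not particular to the members. In size, 30 of the 32 average intervals lay between -1 and 1 (94.8% of all genes); those of PTPN12 and PTPN22 reached beyond -1. For SHP2 miR1, 25 of the 32 intervals lay between -1 and 1 (86.5% of all genes). A rise of 1 log2 unit lay outside every average interval of the 32 members, and PTPN7, with an upper bound of 0.85, came nearest. With SHP2 miR1 alone the interval of PTPN7 did include such a rise.

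**Figure D4:**
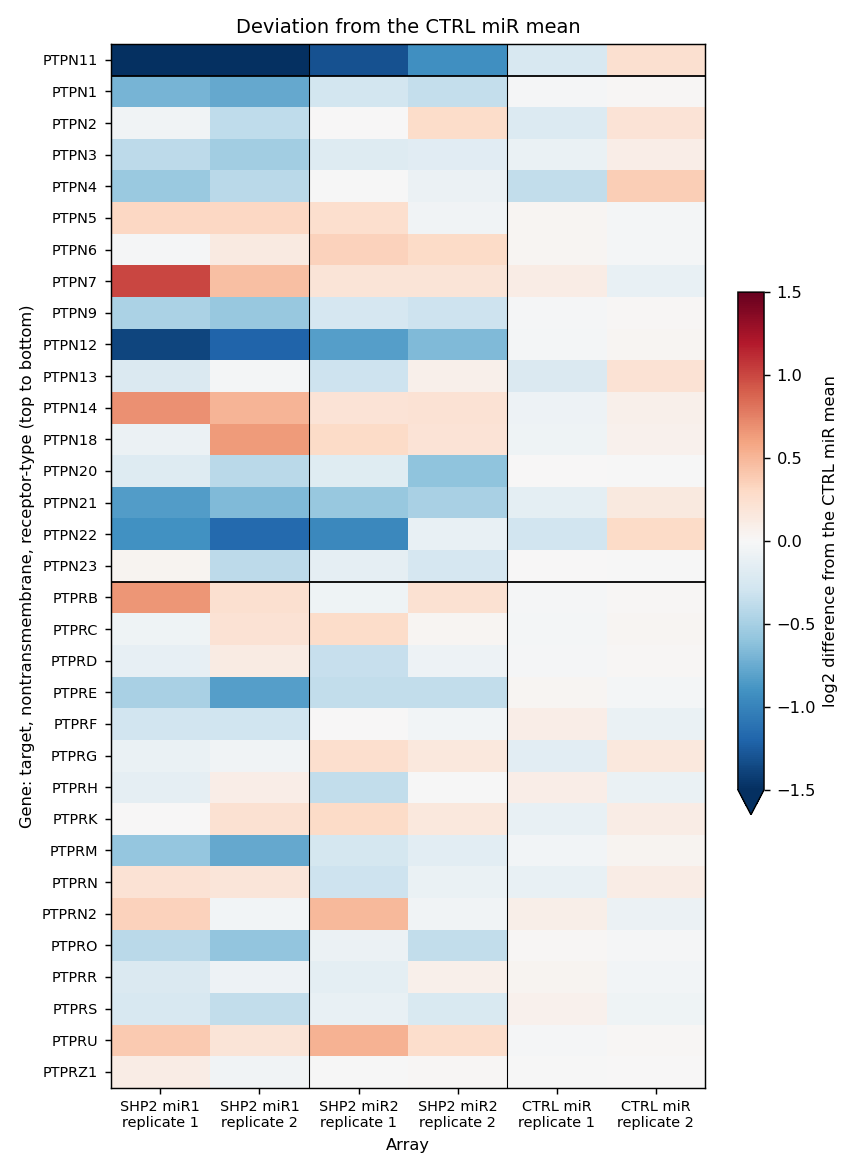
Deviation of each array from the CTRL miR mean (log2, blue lower and red higher) for PTPN11, the 16 nontransmembrane and the 16 measured receptor-type members, with arrays in columns. PTPN12 is blue on all 4 SHP2 miR arrays, while PTPN7 and PTPN14 are red on them. The scale ends at the darkest blue, which both SHP2 miR1 arrays of PTPN11 exceed.

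Genes called lower with SHP2 miR1 had a median genomic span of 62.5 kb, beside 24.5 kb over all genes (RefSeq table of GRCh38.p14). The 5 members lower with SHP2 miR1 had a median span of 103 kb, and the 26 members that did not pass had one of 117 kb. Called and uncalled members were thus both long; the part of span in the calls was not tested.

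Shares of 5 other lists called on average ran between 3.85% and 10.3%, beside 4.20% of all genes, and with SHP2 miR1 between 7.69% and 18.8%, beside 8.60%. Among 35 measured enzymes of the wider phosphatase superfamily, 2 were lower and 0 higher on average, with a median of -0.13, a share (5.71%) near that of all genes. These were MTMR9, a myotubularin without catalytic activity, at -0.76 (adjusted p = 0.0244), and PTPDC1, at -0.56 (adjusted p = 0.0414). With SHP2 miR1 alone 5 were lower and 1 higher. Of 39 measured substrates 3 were lower and 0 higher (median -0.18). They were IRS2, an insulin receptor adaptor, at -0.95 (adjusted p = 0.0184), JAK2, a cytokine receptor kinase and PTPN1 substrate, at -0.80 (adjusted p = 0.0353), and EPHA2 at -0.63 (adjusted p = 0.0364). With SHP2 miR1 alone 5 were lower and 2 higher.

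Of 32 measured ligands and partners of receptor-type phosphatases, 2 were higher and 1 lower on average (median 0.11). CNTN3, a contactin that binds PTPRG, fell by 1.38 (SE 0.17, adjusted p = 0.00328). The liprin PPFIBP2 and the synaptic adhesion protein IL1RAPL1, a ligand of PTPRD, rose by 0.84 and 0.60 (adjusted p = 0.00795 and 0.0322), and IL1RAPL1 was dim. Of 26 genes of the thioredoxin system or of enzymes that form or remove hydrogen peroxide, which oxidises the catalytic cysteine of phosphatases, 1 was higher and 0 lower (median 0.08), namely SOD2 at 0.53 (adjusted p = 0.0491). Of 29 cytosolic tyrosine kinases, FGR rose by 0.87 (adjusted p = 0.00851), while PTK2B and JAK2 fell by 0.62 and 0.80 (adjusted p = 0.0267 and 0.0353), with a median of 0.01. With SHP2 miR1 alone 4 ligands or partners were higher and 2 lower, 1 gene of the peroxide and thioredoxin list was higher (SOD2) and 1 lower (the glutaredoxin GLRX, -0.62, adjusted p = 0.0484, lost with any array left out), and 1 kinase was higher and 2 lower. With SHP2 miR2 alone 0 genes of these 5 lists passed in limma, while 6 superfamily enzymes, 6 substrates, 6 ligands or partners, 2 peroxide and thioredoxin genes and 4 kinases had an unadjusted p under 0.05. These are shares between 7.69% and 18.8%, beside 11.0% of all genes.

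The 11 genes named from these lists on average were MTMR9, PTPDC1, IRS2, JAK2, EPHA2, CNTN3, PPFIBP2, IL1RAPL1, SOD2, FGR and PTK2B. What follows concerns their calls on average over both SHP2 miRs, not their calls with SHP2 miR1 alone. Without CTRL miR replicate 2 none of these genes kept its average call. EPHA2, IL1RAPL1, PTPDC1, PTK2B and SOD2 were lost with any array left out, and SOD2 also with median centring (adjusted p = 0.0650). JAK2 was lost in 5 of the 6 omissions and MTMR9 in 4. IRS2, FGR and PPFIBP2 were lost without either control, and CNTN3 only without CTRL miR replicate 2.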

How the data were processed

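Log2 probe set values of 6 HuGene-1_0-st-v1 arrays were used as deposited by the authors, who made them with R 2.10 and oligo 1.8 per the submitters' processing notes. Base 2 was inferred from the range of values. For background correction, normalization, summary method and build, the sources used here give no statement. Groups came from the sample titles.

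Of 28869 probe sets, 19310 had 1 gene symbol, 1752 several and 7807 none. Of those with 1 symbol, 19279 matched RefSeq by gene identifier. The probe set with the highest mean was kept for each gene. A model with 3 groups was fitted to all 18377 genes with limma 3.58.1 (R 4.3.3, eBayes, 3 residual and 6.10 prior degrees of freedom), with Benjamini-Hochberg adjustment over all genes and two-sided p-values. Intervals are 95% intervals of that fit, unadjusted. The fit was tested on simulated data. The number of arrays limits the precision.

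Members, lists, tests and alternatives were chosen with earlier results of these data known. Described in full were members past the threshold, and those with all SHP2 miR arrays on 1 side of both controls and an average difference of at least 0.4. From other lists, up to 6 genes called on average were named. GLRX and the single marker genes were named after their values were seen. Alternatives were a trend or robust prior, dim genes left out, quantile normalization, median centring, probe sets averaged or all tested, array weights, a fit on the compared groups alone, the replicate number as a block, a minimum difference of 0.5 and each array left out.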

Additional observations from a re-analysis of the deposited data

Results flagged for a closer look

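Direct comparison of SHP2 miR2 with SHP2 miR1 passed the adjusted threshold for 3 of the genes named among the members, the other lists and the markers. None of them is a phosphatase of the family. CNTN3, the contactin partner of PTPRG, was 1.54 higher with SHP2 miR2 than with SHP2 miR1 (log2, adjusted p = 0.0304). LAMB3, a laminin chain of the basal marker list, was 1.05 higher (adjusted p = 0.0421), and TEK, an angiopoietin receptor of the endothelial marker list, was 1.57 higher (adjusted p = 0.00499). All 3 were below CTRL miR with both SHP2 miRs: the differences with SHP2 miR1 and with SHP2 miR2 were -2.16 and -0.61 for CNTN3, -1.60 and -0.55 for LAMB3, and -2.16 and -0.59 for TEK. With an array left out, the difference between the SHP2 miRs was lost for LAMB3 with any array, for CNTN3 with any but SHP2 miR1 replicate 1, and for TEK without SHP2 miR2 replicate 1 (adjusted p = 0.0735).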

How the results depend on the processing

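PTPN11 passed on average under every alternative run. Of 606 values under alternatives (32 members on average and the 6 called ones with SHP2 miR1), 538 kept their sign and side of the threshold, 43 lost and 10 gained a call, and 15 turned sign. The other members gained 15 further calls with SHP2 miR1 (PTPN22, PTPN7, PTPN9, PTPRO and PTPN4). Quantile normalization turned PTPN2 (0.043), PTPRN (-0.051) and PTPRZ1 (-0.067), and median centring PTPRN (-0.037) and PTPRZ1 (-0.020). With an array left out, signs turned within -0.25 to 0.17 for PTPN2, -0.63 to 0.10 for PTPN4, -0.34 to 0.10 for PTPN13, -0.092 to 0.22 for PTPRG, -0.11 to 0.11 for PTPRN and -0.023 to 0.057 for PTPRZ1; none of these was called, and the cause was not tested. Members called on average were 2, but 8 with a mean-variance trend, 0 with a minimum difference of 0.5, and 0 to 2 with an array left out. The 6 called with SHP2 miR1 became 1 with the minimum difference and 1 to 5 with an array left out. With the trend, 1 member was called for SHP2 miR2 and 1, PTPN1, between the SHP2 miRs. Over all genes, 771 on average became 1793 with the trend, 67 with the minimum difference and 108 to 512 with an array left out. For SHP2 miR1 1581 became 2786, 174 and 269 to 1308 in that order, for SHP2 miR2 68 became 367, 10 and 0 to 60, and between the SHP2 miRs 35 became 446, 9 and 0 to 15. Without dim genes the last 2 counts were 154 and 95. Between the SHP2 miRs the count was also 69 with median centring, 55 with array weights and 12 with only those groups in the fit. The sample titles give same-numbered replicates no link but the number. Replicate 1 deviations correlated at r = 0.0134, 0.0669 and 0.14 between groups, and whether same-numbered arrays shared a run was not tested. With the replicate number as a block, 817, 1709, 37 and 12 genes passed in the 4 comparisons, and 2, 7, 0 and 0 members; PTPN14 was lost with SHP2 miR1 (adjusted p = 0.0510) while PTPN7 and PTPN22 were gained. The average comparison already uses all groups, so a fit on only the groups compared gave it no other value.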
